A study of Mus musculus with 19 samples.

Results

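Histone lysine methyltransferases and demethylases were taken by their names from the gene symbols of both count tables. A symbol counted where it was Kdm1 to Kdm8, Kmt2 to Kmt5 or Setd with its usual letter or number, or Setdb1, Setdb2, Ezh1, Ezh2, Nsd1 to Nsd3, Ehmt1, Ehmt2, Suv39h1 or Suv39h2. The rule found 45 genes among 54352 symbols, and it used no measured value. Methyltransferases, most of them built around a SET domain, place methyl groups on lysines of histone tails. Demethylases of the flavin-dependent Kdm1 type and of the JmjC type take them off again. Methylation of H3K4 marks active promoters and enhancers, that of H3K36 lies over transcribed gene bodies, and that of H3K9 and H3K27 goes with repressed chromatin. In embryonic stem cells the repressive enzymes keep developmental genes and endogenous retroviruses silent.

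The libraries came from TT2, a mouse embryonic stem cell line, grown on a layer of inactivated mouse embryonic fibroblasts (feeder cells). Pladienolide B (PlaB) binds the SF3B complex of the spliceosome. In 2D culture, 2 control libraries had no treatment and 2 libraries had 20 nM PlaB for 6 h, and both groups were collected 54 h after seeding. The other 15 libraries were blastoids, embryo-like aggregates grown in 3D microwells, with 3 libraries on each of days 1, 2, 3, 4 and 5, and the labels give them the same 6 h of PlaB. No untreated aggregates were analysed here, all cells derive from 1 line, and the feeder cells add RNA of their own. Polyadenylated RNA was amplified with Smart-seq2, which reads full-length cDNA without molecular identifiers. The labels do not say that replicates were separate cultures, so p-values measure the spread between these libraries, which may be technical.

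The 4 libraries in 2D held 2515381 to 4118725 counts each, and the 15 blastoid libraries 3684787 to 7607021. Of the 15 pluripotency markers examined, none was at 0 in any of the 19 libraries. The 18 feeder fibroblast markers summed to 5548 to 10162 CPM (counts scaled to library size) in 2D, 409 to 1002 on days 1 to 3 and 122 to 290 on days 4 and 5. Day 3 replicate 3 stood apart, with 13.5% mitochondrial counts against 2.60% to 9.38% elsewhere. In 2D the mitochondrial share was 5.74% and 6.18% in control and 9.14% and 9.38% with PlaB. The PlaB libraries also held fewer counts, 2515381 and 2765115 against 4118725 and 3909958 in control. The libraries also differed in the level of GC-rich transcripts against GC-poor ones. The log2 level of GC-rich minus that of GC-poor genes averaged -0.89 in control and 0.14 with PlaB. In blastoids it was 0.86 (day 1), 0.15 (day 2), -0.65 (day 3), 0.44 (day 4) and -0.27 (day 5). The counts of members called were therefore also taken with the trend of each library with GC content removed. The trend differed with treatment and day, so a technical and a biological part of it cannot be told apart. Its removal may take out either. Values from that fit are given for some members only, and others changed in size as well.

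RefSeq promoter windows (GRCm38.p6, the 250 bases before the start site) were matched for 34 of the 45 members. The 4 printed here belong to genes whose levels moved in opposite directions: Kdm5c rose and Ezh2 fell after PlaB, and Kdm6a rose and Kmt5c fell between blastoid days 1 and 5. Capitals mark matches to CCAAT (or ATTGG), the GC box GGGCGG (or CCGCCC), the E2F-type site TTCCCGCC (or GGCGGGAA) and the E-box CACGTG, on either strand. The letters of an E2F-type site and a GC box can overlap. Kdm5c lies at chrX:152232977-152233226 on the plus strand, Ezh2 at chr6:47595031-47595280 on the minus strand, Kdm6a at chrX:18162325-18162574 on the plus strand and Kmt5c at chr7:4739877-4740126 on the plus strand. GENCODE M21 begins Ezh2 at 47595341, Kdm5c at 152233020 and Kmt5c at 4740115. By those starts the Ezh2 window, most of the Kdm5c window and the end of the Kmt5c window lie inside the gene.
Kdm5c: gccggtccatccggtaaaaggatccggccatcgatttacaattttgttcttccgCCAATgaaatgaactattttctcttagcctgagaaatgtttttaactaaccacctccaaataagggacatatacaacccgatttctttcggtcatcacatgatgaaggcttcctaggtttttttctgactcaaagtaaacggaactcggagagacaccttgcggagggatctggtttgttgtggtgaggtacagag
Ezh2: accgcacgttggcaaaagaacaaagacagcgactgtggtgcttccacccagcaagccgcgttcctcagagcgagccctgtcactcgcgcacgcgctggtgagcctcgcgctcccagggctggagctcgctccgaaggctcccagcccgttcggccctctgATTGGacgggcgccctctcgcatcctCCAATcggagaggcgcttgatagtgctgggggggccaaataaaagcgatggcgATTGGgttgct
Kdm6a: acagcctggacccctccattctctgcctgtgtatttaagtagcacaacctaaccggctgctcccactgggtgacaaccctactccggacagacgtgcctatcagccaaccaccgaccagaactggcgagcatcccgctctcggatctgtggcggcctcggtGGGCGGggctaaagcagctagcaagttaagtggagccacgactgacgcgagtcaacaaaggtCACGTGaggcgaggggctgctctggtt
Kmt5c: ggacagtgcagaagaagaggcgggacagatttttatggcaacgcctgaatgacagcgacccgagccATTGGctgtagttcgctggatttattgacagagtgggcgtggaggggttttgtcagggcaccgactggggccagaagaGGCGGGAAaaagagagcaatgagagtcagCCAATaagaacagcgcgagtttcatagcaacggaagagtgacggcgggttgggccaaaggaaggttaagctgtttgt
Ezh2 held 3 CCAAT boxes, Kdm5c 1, Kmt5c 2 with an E2F-type site, and Kdm6a a GC box with an E-box. Among 32851 windows of the same length, 33.8% held a CCAAT box, 32.7% a GC box, 1.86% an E2F-type site and 6.02% an E-box. Of the 34 members' windows, 14 held a CCAAT box, 19 a GC box, 2 an E2F-type site (Kmt5c and Suv39h2) and 2 an E-box (Ehmt2 and Kdm6a). The members' windows had a median GC content of 59.6% and 17.5 CpG pairs, against 52.4% and 6 over all windows. Such matches describe the letters only.

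The family is made of long, split genes. In GENCODE M21 the 41 members tested in 2D had a median of 21 introns in the longest coding transcript, against 7 over all genes tested. Their transcripts had a median length of 6363 bases against 2994, and the genes spanned 52.2 kb against 23.0 kb, while the median GC content, 48.5%, was close to the 48.2% of all genes.

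**Figure D1:**
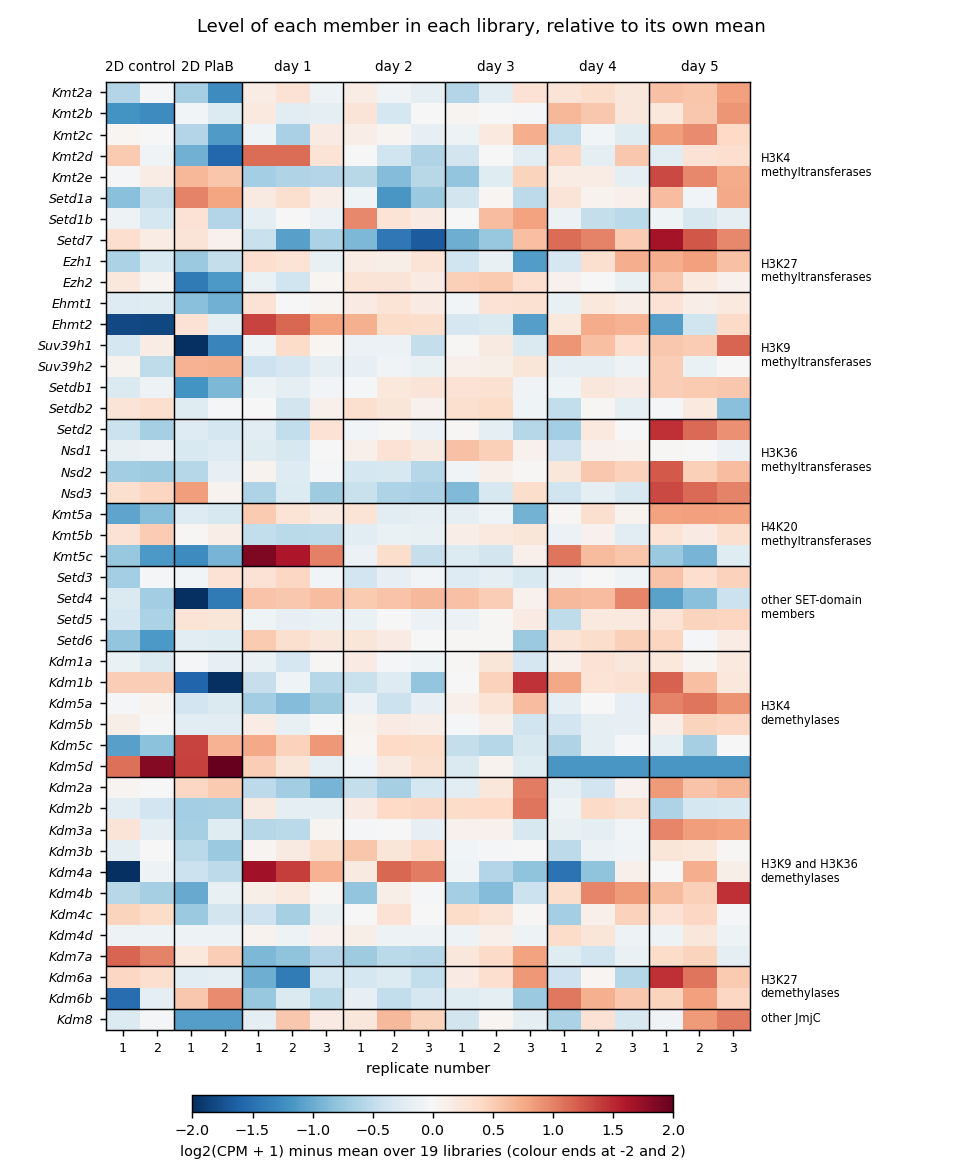
Level of each of the 45 members (rows, grouped by substrate) in each of the 19 libraries (columns), as log2(CPM + 1) minus the member's own mean over the libraries. On day 5 many rows are red (higher) in all 3 libraries, while Kdm5d is blue (lower) throughout days 4 and 5.

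Levels were compared between genes per kilobase of exon, with the exons of all annotated transcripts of a gene merged. This length exceeds that of the longest coding transcript unequally. It is 6678 against 2787 bases for Ezh2 and 5179 against 3028 for Kdm1a. For Setd5 it is 18347 against 6755, and for Setd2 10754 against 8350. The order of genes given here rests on the merged length, and no order by transcript length is given. Kdm1a, the flavin-dependent H3K4 demethylase LSD1, had the highest mean of the 45 in both 2D groups and on days 1, 2 and 4, with 23.7 ± 1.87 CPM per kb (SD, n = 2) in control cells and 31.8 ± 1.97 (SD, n = 3) on day 4. Ezh2, the main catalytic subunit of Polycomb repressive complex 2 (PRC2) in stem cells, came next in control cells at 22.6 ± 1.64 CPM per kb (SD, n = 2), which is within the spread of Kdm1a. On day 3 Ezh2 had the highest mean, 28.1 ± 2.02 CPM per kb (SD, n = 3), again within the spread of Kdm1a at 27.5 ± 5.53. On day 5 the order was different. Setd2, which travels with elongating RNA polymerase and writes H3K36 trimethylation, reached 47.9 ± 9.46 CPM per kb (SD, n = 3), and its lowest library (39.5) lay above the highest Kdm1a library (31.9). At the other end, Kdm4d had at most 0.387 CPM in any library and was not tested, and Kdm8 had no count in either PlaB library.

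PlaB changed the family in both directions in 2D culture. Of 41 members tested, 10 were higher and 14 lower after PlaB, and 17 did not pass an adjusted p of 0.05 (edgeR quasi-likelihood test, adjusted over all genes). Over all 11183 genes tested, 25.9% were called higher and 25.8% lower, so the share of members called higher lies near the background. The median log2 fold change was -0.15 over the members and 0.00 over all genes. Without control replicate 1, 5 members were higher and 7 lower, without control replicate 2 the lower count was 9, and DESeq2 called 8 lower. In bulk RNA, fewer cells of a type and less RNA per cell cannot be told apart.

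Feeder markers stood higher in the PlaB libraries. Of 17 feeder markers tested 13 were higher and 0 lower, and their sum went from between 5548 and 6480 CPM in control to between 7938 and 10162 CPM, with none of the 18 at 0. The sum of the pluripotency markers went from between 21657 and 23759 CPM to between 15705 and 15930 CPM, with 1 of 15 higher and 6 lower. Mean sums of primitive endoderm markers went from 604 to 1530 CPM, and those of 2-cell-like cells from 95.6 to 163 CPM. The trophectoderm sum went from 125 to 206 CPM, with 2 of 10 markers higher and 3 lower. All these sums keep the GC trend. The part of these shifts in the results below was not tested.

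The catalytic subunit of PRC2 fell after PlaB. Ezh2 stood at 159 and 143 CPM in the control libraries and 50.98 and 61.2 CPM with PlaB. Both PlaB libraries lay below every other of the 19 libraries, and Ezh2 fell (log2 fold change -1.43 ± 0.17 (SE), adjusted p = 5.7e-09). Its value was -1.06 with the GC trend removed. Ezh1, the paralogue with weaker activity that prevails in non-dividing cells, stood at 11.2 and 14.3 CPM in control and 10.4 and 12.6 CPM with PlaB and did not pass (log2 fold change -0.15 ± 0.36 (SE), adjusted p = 0.76). Per kilobase, Ezh2 exceeded Ezh1 15.8- and 11.2-fold in the control libraries and 5.48- and 5.40-fold in the PlaB libraries, so the ratios do not overlap. These ratios keep the GC trend. With it removed, Ezh1 stood at -0.39 (adjusted p = 0.38) beside -1.06 for Ezh2, so the paralogues differed by less.

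Of 8 tested partner genes of PRC2, 5 were lower and 2 higher, where 25.8% and 25.9% of all genes were. For partner genes, here and below, no values with the GC trend removed, with DESeq2 or without single libraries are given. Jarid2, which helps to bring PRC2 to its targets, ran from 338 to 409 CPM in control and from 71.3 to 84.9 CPM with PlaB, without overlap (log2 fold change -2.26, adjusted p = 1.3e-14). Eed, the core subunit that binds methylated H3K27, fell as well (390.2 to 403 against 189 to 219 CPM, log2 fold change -0.96, adjusted p = 2.4e-07). Rbbp4, a histone chaperone subunit shared with other complexes, rose (log2 fold change 0.94, adjusted p = 2.7e-06).

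Among the H3K9 methyltransferases, close paralogues moved apart. Suv39h1 and Suv39h2 both write H3K9 trimethylation at heterochromatin. Suv39h1 had 7.901 and 11.6 CPM in control and 1.73 and 3.56 CPM with PlaB (log2 fold change -1.85 ± 0.54 (SE), adjusted p = 0.0043), while Suv39h2 had 33.9 and 22.4 CPM and 53.1 and 53.7 CPM (log2 fold change 0.92 ± 0.23 (SE), adjusted p = 0.00094). Neither gene's groups overlap. Of the exon bases of Suv39h1 and Suv39h2, 14.6% and 9.98% are shared with genes on the other strand. The ratio of Suv39h2 to Suv39h1 per kilobase was 5.13 and 2.31 in control and 36.7 and 18.1 with PlaB, on only 4 and 9 Suv39h1 counts in the PlaB libraries. Both calls held with the GC trend removed (-1.95 and 1.35) and both were lost without control replicate 2 (adjusted p = 0.097 and 0.069).

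Ehmt1 and Ehmt2 (GLP and G9a) form the heterodimer that writes H3K9 dimethylation. Ehmt2 had 3.31 and 3.24 CPM in control and 17.3 and 12.2 CPM with PlaB (log2 fold change 2.15 ± 0.45 (SE), adjusted p = 0.00015), and Ehmt1 had 42.1 and 42.9 CPM and 28.1 and 25.7 CPM (log2 fold change -0.66 ± 0.23 (SE), adjusted p = 0.015). Ehmt2 is the member richest in GC (60.8%), and with the GC trend removed its value was 0.71 and no longer passed (adjusted p = 0.2), while Ehmt1 kept its call there (-0.90) and lost it with DESeq2 (adjusted p = 0.083) and without control replicate 1 (0.063), control replicate 2 (0.066) or PlaB replicate 2 (0.088). Setdb1, which silences endogenous retroviruses with Trim28, fell from 34.9 and 39.9 CPM to 18.1 and 22.5 CPM (log2 fold change -0.88 ± 0.25 (SE), adjusted p = 0.0039). Of 10 partners in H3K9 methylation, 5 were lower and 1 higher, where 25.8% and 25.9% of all genes were. Mphosph8 and Fam208a, subunits of the HUSH silencing complex, had log2 fold changes of -1.70, adjusted p = 1.9e-11, and of -1.54, adjusted p = 1.8e-07.

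Of the 8 genes grouped as H3K4 methyltransferases, with Kmt2e included, 3 were higher and 2 lower. Kmt2c and Kmt2d are the catalytic subunits of the enhancer-bound COMPASS-like complexes. Kmt2c had 73.9 and 72.3 CPM in control and 47.96 and 32.4 CPM with PlaB (log2 fold change -0.87 ± 0.20 (SE), adjusted p = 0.00052). Kmt2d was scarce, at 6.63 and 4.05 CPM and 1.73 and 0.79 CPM (log2 fold change -2.08 ± 0.73 (SE), adjusted p = 0.018), and did not pass with DESeq2 (adjusted p = 0.1) or without control replicate 1 (0.35), control replicate 2 (0.059) or PlaB replicate 2 (0.1). With the GC trend removed its value was -3.25. Both genes were lower in each PlaB library than in either control.

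Kmt2b and Setd1a, which methylate H3K4 at promoters, moved the other way. Kmt2b had 4.59 and 4.32 CPM in control and 11.2 and 9.48 CPM with PlaB (log2 fold change 1.21 ± 0.47 (SE), adjusted p = 0.029), and Setd1a had 3.57 and 4.86 CPM and 15.1 and 13.04 CPM (log2 fold change 1.73 ± 0.44 (SE), adjusted p = 0.0011). Both are GC-rich (59.1% and 57.0%), and neither passed once the GC trend was removed (-0.06 and 0.71). Kmt2b also lost its call without control replicate 1 (adjusted p = 0.13), control replicate 2 (0.16) or PlaB replicate 1 (0.098). Of the exon bases of Setd1a, 52.3% are shared with other annotated genes, so its counts are uncertain. Kmt2e, a family member for which catalytic activity is in doubt, rose from 65.5 and 75.02 CPM to 108 and 99.96 CPM (log2 fold change 0.56 ± 0.17 (SE), adjusted p = 0.0052). Of 10 COMPASS partners, 2 were higher and 3 lower, with Ncoa6, a subunit of the Kmt2c and Kmt2d complexes, at -1.07, adjusted p = 0.0041.

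None of the 4 H3K36 methyltransferases passed. Their log2 fold changes ran from -0.15 (Nsd1) to 0.37 (Nsd2), with adjusted p from 0.18 to 0.7, 0 of them had an unadjusted p under 0.05, and DESeq2 called none of Nsd1, Nsd2 and Setd2. With the GC trend removed, Setd2 (0.61) and Nsd2 (0.87) passed as higher. Kmt5a, the only H4K20 monomethyltransferase, rose from 26.00 and 30.2 CPM to 46.2 and 44.3 CPM (log2 fold change 0.68 ± 0.22 (SE), adjusted p = 0.011), which did not pass with DESeq2 (adjusted p = 0.058) or without control replicate 1 (0.14). Setd5, a SET-domain protein that associates with Hdac3, rose from 289 and 237 CPM to 445 and 437 CPM (log2 fold change 0.74 ± 0.13 (SE), adjusted p = 1.6e-05). Setd6 (0.76, adjusted p = 0.043) kept its call in 1 of 10 alternatives and in none of the 4 that left out a library (adjusted p = 0.078 to 0.31). Setd4 fell (log2 fold change -1.52, adjusted p = 0.026; -2.38 with the GC trend removed).

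The demethylases were split as well. Kdm1b (LSD2), needed in the oocyte for maternal imprints, fell from 21.7 and 21.6 CPM in control to 4.32 and 2.77 CPM with PlaB (log2 fold change -2.61 ± 0.40 (SE), adjusted p = 1.5e-06). Its paralogue Kdm1a had 129.7 and 116 CPM and 139.98 and 127 CPM, which overlap, and did not pass (log2 fold change 0.11 ± 0.15 (SE), adjusted p = 0.55). Of the CoREST partners of Kdm1a, 3 of 8 were lower and 1 higher, among them the scaffold Rcor1 (-1.06, adjusted p = 0.00027) and the deacetylase Hdac1 (1.01, adjusted p = 4e-07).

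Kdm5c, an X-linked demethylase of H3K4 trimethylation, rose from 9.68 and 11.9 CPM to 57.03 and 35.6 CPM (log2 fold change 2.10 ± 0.28 (SE), adjusted p = 1e-07). The groups are far apart, although the PlaB libraries differ from each other, and the value was 1.63 with the GC trend removed. Kdm5a, which removes the same mark, went from 189 and 203 CPM to 149 and 159 CPM (log2 fold change -0.35 ± 0.14 (SE), adjusted p = 0.038). That small fall turned to 0.07 with the GC trend removed and passed in 3 of 10 alternatives, none of which left out a library (adjusted p = 0.059 to 0.15 there).

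Of 7 tested demethylases of H3K9 and H3K36, 4 were lower and 0 higher. Kdm4c, which removes H3K9 and H3K36 trimethylation, had 129 and 121 CPM in control and 55.7 and 72.3 CPM with PlaB (log2 fold change -0.97 ± 0.17 (SE), adjusted p = 1.1e-05). Kdm7a (-0.74, adjusted p = 0.0052), Kdm3a (-0.50, adjusted p = 0.016) and Kdm3b (-0.58, adjusted p = 0.048) were lower by less, and 24.6% of the exon bases of Kdm3b are shared with other genes. With the GC trend removed the calls of Kdm7a (-0.17) and Kdm3a (-0.20) ended, and those of Kdm4c (-0.57) and Kdm3b (-1.09) did not. Kdm7a was also lost without control replicate 1 (adjusted p = 0.059), and Kdm3a without control replicate 1 (0.3) or PlaB replicate 1 (0.18).

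The H3K27 demethylases went in opposite directions. Kdm6a (UTX), X-linked and broadly expressed, had 75.9 and 72.3 CPM and 48.8 and 49.4 CPM (log2 fold change -0.60 ± 0.19 (SE), adjusted p = 0.0075). Kdm6b (JMJD3), an inducible enzyme, had 1.53 and 5.397 CPM in control and 9.505 and 13.04 CPM with PlaB (log2 fold change 1.71 ± 0.51 (SE), adjusted p = 0.0057). Neither pair of groups overlaps, but both calls ended with the GC trend removed (-0.15 and 0.42) and without control replicate 1 (adjusted p = 0.05008 and 0.18).

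Of 15 tested histone lysine enzymes outside the name rule, 5 were higher and 3 lower after PlaB. Ash1l, an H3K36 methyltransferase, fell (-0.89, adjusted p = 0.00024), as did Uty (-1.46, adjusted p = 0.0045), and Jmjd6, a JmjC protein, rose (1.04, adjusted p = 0.001).

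**Figure D2:**
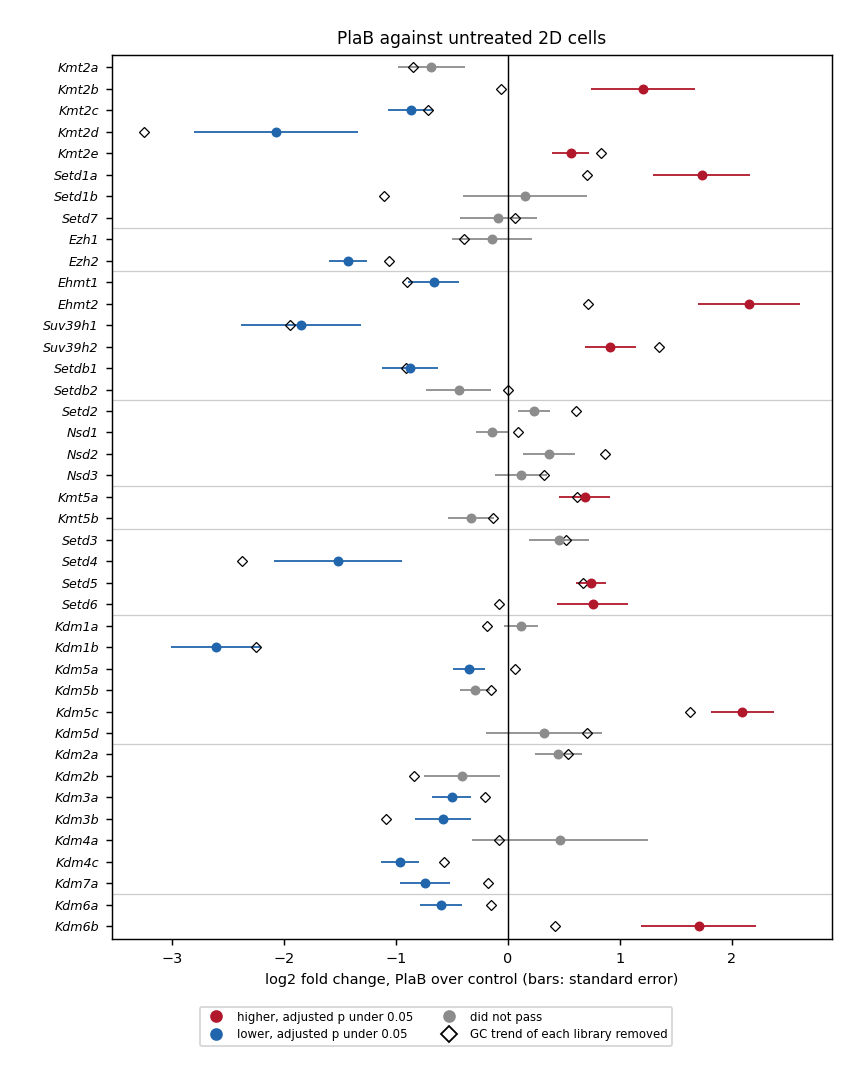
Log2 fold change of PlaB over control for the 41 tested members, grouped by substrate in the order of the family map, with standard errors (n = 2 per group), and the value with the GC trend of each library removed (open diamonds). By the circles Kdm1b and Kmt2d lie farthest left and Ehmt2 and Kdm5c farthest right, and the diamond of Ehmt2 lies far to the left of its circle.

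With the GC trend removed from every library, 8 members were higher and 12 lower, of which 5 and 10 were also called without that step. The calls gained were Setd2, Nsd2 and Kdm2a (0.54) as higher and Kmt2a (-0.85) and Kdm2b (-0.84) as lower. Of the 21 members named by rule and called after PlaB, 7 kept their call in every alternative: Ezh2, Kdm1b, Kdm4c, Kdm5c, Kmt2c, Setd5 and Setdb1. Over all genes, the median log2 fold change after PlaB rose from -0.48 in transcripts under 45% GC to 1.13 in those of 55% GC or more. In the richest class 5 of 8 members were higher and 2 (Kmt2d and Setd4) lower, where 54.98% and 4.67% of all genes were. In the poorest class 1 of 11 (Suv39h2) was higher and 6 lower, where 11.4% and 45.2% of all genes were. Between 45% and 50% GC, 3 of 14 were higher and 4 lower, where 18.5% and 27.5% of all genes were. From 50% to 55% GC, 1 of 8 was higher and 2 lower with a median of -0.28, where 35.7% and 11.8% of all genes were, with a median of 0.40. Among members with at least 20 introns, 6 of 26 were higher and 10 lower, with a median of -0.22. Over all genes of that class 15.6% were higher and 32.9% lower, with a median of -0.21.

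**Figure D3:**
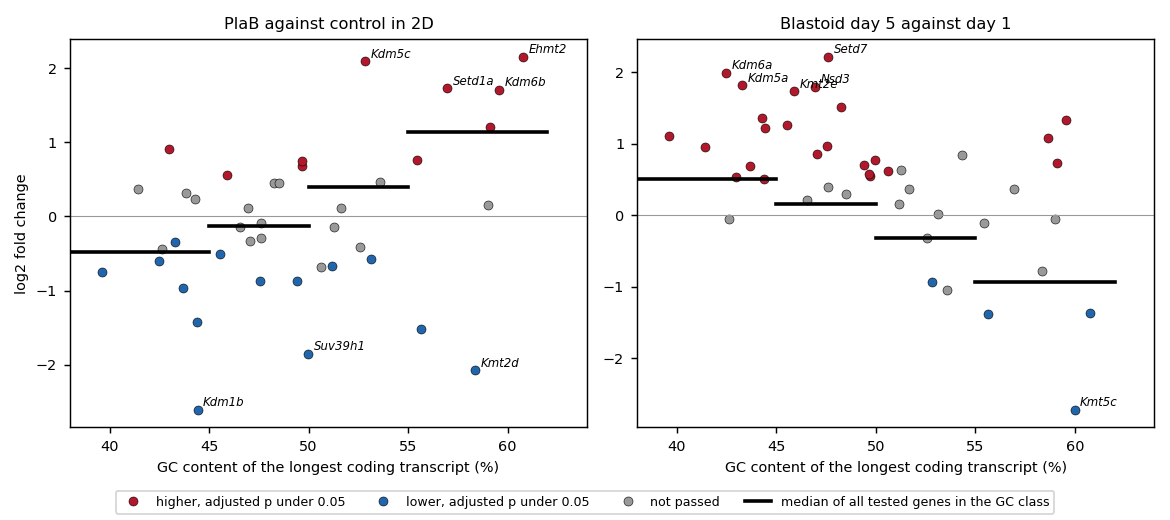
Log2 fold change of each member against the GC content of its longest coding transcript, after PlaB (left) and from blastoid day 1 to day 5 (right), with the median of all tested genes in each GC class (black lines). The lines climb with GC content after PlaB and descend by day 5, where most members under 50% GC lie above them. Kdm5d, with no count on day 5, is left out on the right.

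Between blastoid day 1 and day 5 the family moved mostly upward. Of 44 members tested, 24 were higher on day 5 and 5 lower, and 15 did not pass (edgeR), where 25.5% of all 15121 genes were called higher and 25.5% lower. The 5 lower include the Y-linked Kdm5d, which had no count on day 5 and is described below with other Y-linked genes. The median log2 fold change was 0.61 over the members and -0.02 over all genes. Under total-count scaling the median of all genes moved by -0.34, 33.8% of called genes were higher instead of about as many higher as lower, and 14 members were higher and 7 lower. The members' median lay 0.62 above that of all genes in that setting and also without a low-count filter (13 higher), and 0.59 above it with the GC trend removed (25 higher and 4 lower, of which 20 and 4 were also called without that step). The members' share of all counts was 0.345% to 0.371% in the day 5 libraries and at most 0.303% in the other 16.

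Other cell-type markers changed over the same days. Of 12 trophectoderm markers tested, 9 were higher and 0 lower on day 5, with a sum of 360 to 537 CPM on day 1 and 1278 to 2370 CPM on day 5. Feeder markers fell in 13 of 17 cases, with sums of 542 to 893 CPM and of 122 to 130 CPM, and 1 to 3 of the 18 were at 0 in the day 5 libraries. Pluripotency markers were higher in 3 of 15 cases and lower in 5, and primitive endoderm markers higher in 1 of 7 and lower in 4. The part of these shifts in the members' values was not tested.

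For 9 members, each day 5 library lay above every other of the 19 libraries: Kdm3a, Kdm5a, Kmt2a, Kmt2e, Kmt5a, Nsd3, Setd2, Setd5 and Setdb1. Over all genes tested in the joint fit the same held for 6.87%.

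The H3K27 demethylases both rose. Kdm6a had 28.4, 20.9 and 44.4 CPM on day 1 and 157, 120.2 and 81.8 CPM on day 5 (log2 fold change 2.00 ± 0.29 (SE), adjusted p = 1.5e-05). All day 5 libraries were above all day 1 libraries, although those of day 5 spread widely. Kdm6b rose from 3.29, 4.94 and 4.02 CPM to 8.93, 11.8 and 8.71 CPM (log2 fold change 1.34 ± 0.31 (SE), adjusted p = 0.0014), and both calls held in each of the 13 alternatives run. Kdm6b rose by more with the GC trend removed (2.45).

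Among the writers of H3K27 methylation, Ezh2 went from 126, 104 and 141 CPM to 201, 157 and 146 CPM (log2 fold change 0.51 ± 0.19 (SE), adjusted p = 0.031). That call was lost in 9 of 13 alternatives, among them total-count scaling (0.17) and removal of the GC trend (0.17). It was also lost without day 1 replicate 1 (adjusted p = 0.11) or 2 (0.19) and without day 5 replicate 1 (0.16) or 2 (0.053). Ezh1 went from 22.9, 21.9 and 16.1 CPM to 30.3, 32.7 and 27.5 CPM and did not pass (log2 fold change 0.64 ± 0.28 (SE), adjusted p = 0.06), but was called higher with the GC trend removed (0.84, adjusted p = 0.0099). Of 9 PRC2 partners, 3 were higher and 3 lower. The core subunit Suz12 rose (1.13, adjusted p = 0.0013), and Epop, which limits PRC2 activity in stem cells, fell from 43.7 to 86.3 CPM to 8.93 to 15.2 CPM (-2.44, adjusted p = 8.8e-06).

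All 4 H3K36 methyltransferases had a positive value and 3 passed. Setd2 had 193, 161 and 276 CPM on day 1 and 625, 495 and 425 CPM on day 5 (log2 fold change 1.36 ± 0.26 (SE), adjusted p = 0.0002). Nsd3, an H3K36 methyltransferase of the NSD group, had 18.1, 23.3 and 16.8 CPM and 72.4, 63.2 and 57.03 CPM (log2 fold change 1.80 ± 0.27 (SE), adjusted p = 1.7e-05), and Nsd2, a dimethyltransferase, had 50.9, 40.7 and 47.3 CPM and 115, 68.2 and 75.2 CPM (log2 fold change 0.96 ± 0.21 (SE), adjusted p = 0.0008). Day 1 and day 5 did not overlap for any of these 3. Setd2 and Nsd3 kept their call in each of 13 alternatives, and Nsd2 lost it with the GC trend removed (0.43, adjusted p = 0.06). Nsd1 did not pass (0.21, adjusted p = 0.39).

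Of the 8 genes grouped as H3K4 methyltransferases, Kmt2e again included, 5 were higher and 0 lower. Setd7, which also methylates non-histone proteins, rose from 7.85, 4.701 and 6.797 CPM on day 1 to 37.2, 27.7 and 22.5 CPM on day 5 (log2 fold change 2.21 ± 0.39 (SE), adjusted p = 9e-05). Kmt2e rose from 41.9, 43.95 and 44.5 CPM to 169, 132 and 113 CPM (log2 fold change 1.73 ± 0.26 (SE), adjusted p = 2.1e-05), and Kmt2c from 68.3, 45.8 and 80.9 CPM to 129.5, 139 and 95.5 CPM (log2 fold change 0.97 ± 0.25 (SE), adjusted p = 0.0032). The groups of each are apart. Kmt2a (MLL1) and Kmt2b (MLL2) passed with smaller values (0.63, adjusted p = 0.027, and 0.73, adjusted p = 0.022), each lost in 5 of 13 alternatives. Kmt2a was lost without day 1 replicate 1 (adjusted p = 0.088) or 3 (0.13) or day 5 replicate 3 (0.074), and Kmt2b without day 1 replicate 2 (0.099) or 3 (0.09) or day 5 replicate 3 (0.11). With the GC trend removed Kmt2b stood at 1.75. Kmt2d did not pass (-0.78, adjusted p = 0.083), but was called lower with total-count scaling (-1.12, adjusted p = 0.02) and without day 1 replicate 3 (-1.09, adjusted p = 0.021). Setd1a (0.36, adjusted p = 0.37) and Setd1b (-0.05, adjusted p = 0.92) did not pass, and were called higher once the GC trend was removed (1.18, adjusted p = 0.0037, and 0.99, adjusted p = 0.033). Of 10 COMPASS partners, 3 were higher and 1 lower: Ncoa6 rose (1.78, adjusted p = 6.3e-05) and the core scaffold Wdr5 fell (-0.96, adjusted p = 0.00092).

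Among the H3K9 methyltransferases, 3 of 6 were higher and 1 lower. Setdb1 went from 40.03, 37.4 and 41.3 CPM to 60.6, 61.9 and 62.3 CPM (log2 fold change 0.70 ± 0.19 (SE), adjusted p = 0.004), with little spread on either day. Its call was lost in 2 of 13 alternatives, with adjusted p up to 0.196, among them total-count scaling (0.37, adjusted p = 0.11). Suv39h1 (0.77, adjusted p = 0.021) and Suv39h2 (0.54, adjusted p = 0.033) were both higher here, and their calls were lost in 5 and 10 of 13 alternatives. Suv39h1 was lost without day 1 replicate 1 (adjusted p = 0.12) or 3 (0.075) or day 5 replicate 3 (0.14), and Suv39h2 without each of the 3 day 1 libraries in turn (0.053 to 0.16) or without day 5 replicate 1 (0.21). Ehmt2 fell from 37.5, 32.4 and 24.97 CPM to 6.02, 10.5 and 18.6 CPM (log2 fold change -1.36 ± 0.32 (SE), adjusted p = 0.0016), without overlap, but with the GC trend removed its value was -0.17 (adjusted p = 0.58). Ehmt1 had 61.8, 50.3 and 52.9 CPM and 62.5, 55.4 and 58.4 CPM and did not pass (0.16, adjusted p = 0.5). Of 10 partners in H3K9 methylation, 2 were higher (Mphosph8 and Zfp644) and 1 lower, Wiz (-1.11, adjusted p = 0.032), a zinc finger partner of the Ehmt1 and Ehmt2 dimer.

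Of the H4K20 methyltransferases, 2 rose and 1 fell. Kmt5c (SUV420H2), which writes H4K20 trimethylation at heterochromatin, had 11.4, 9.402 and 5.83 CPM on day 1 and 1.04, 0.784 and 1.89 CPM on day 5 (log2 fold change -2.72 ± 0.46 (SE), adjusted p = 6.3e-05; -1.58 with the GC trend removed). Its paralogue Kmt5b had 26.98, 26.1 and 26.5 CPM and 46.7, 43.1 and 47.9 CPM (log2 fold change 0.86 ± 0.18 (SE), adjusted p = 0.00072). Kmt5a rose by less (0.55, adjusted p = 0.043) and lost its call in 9 of 13 alternatives, including each of the 6 that left out a library (adjusted p = 0.067 to 0.17). In the remaining SET-domain genes, Setd4 fell from 16.8, 16.5 and 17.5 CPM to 4.77, 5.75 and 7.96 CPM (log2 fold change -1.39 ± 0.25 (SE), adjusted p = 0.00014), with the groups well apart and the call held in each of 13 alternatives (-0.73 with the GC trend removed).

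Among the H3K4 demethylases, Kdm5a rose from 120.4, 106 and 118 CPM to 389.8, 407 and 364 CPM (log2 fold change 1.82 ± 0.20 (SE), adjusted p = 5.9e-07), the smallest adjusted p of the family. Kdm1b was higher too (1.22, adjusted p = 0.0059), and Kdm1a (0.37, adjusted p = 0.11) and Kdm5b (0.40, adjusted p = 0.088) did not pass. Kdm1a was called higher with the GC trend removed (0.59, adjusted p = 0.01). Kdm5c fell from 37.4, 30.1 and 40.5 CPM to 18.9, 13.3 and 21.6 CPM (log2 fold change -0.94 ± 0.24 (SE), adjusted p = 0.0024), again with no overlap (-0.59 with the GC trend removed). Of 11 CoREST partners 3 were higher and 3 lower, with Rcor1 up (1.29, adjusted p = 8.1e-05) and its paralogue Rcor2 down (-2.23, adjusted p = 0.00033).

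The Y-linked paralogue of Kdm5c, Kdm5d, had 3.82 and 7.02 CPM in control, 4.75 and 8.69 CPM with PlaB, 2.15, 1.65 and 0.971 CPM on day 1, 1.16 to 1.78 CPM on day 2 and 0.825 to 1.35 CPM on day 3. It had no count in any of the 6 libraries of days 4 and 5. Against a floor of 3 counts over the group, day 5 was at least 7.43-fold lower than day 1 and day 4 at least 7.74-fold lower than day 3 (31 counts on day 1, 18 on day 3). Uty, the Y-linked relative of Kdm6a outside the name rule, had 0 to 2 counts in each library of days 4 and 5 and 3 to 24 on days 1 to 3. Summed over Ddx3y, Eif2s3y, Kdm5d and Uty, the level was 100.4 to 115 CPM in control, 60.5 to 63.9 CPM with PlaB, 8.91 to 26.2 CPM on days 1 to 3 and 0.269 to 3.74 CPM on days 4 and 5. The feeder marker sum was higher with PlaB than in control, where the Y-linked sum was lower, and it was lower in blastoids and lowest on days 4 and 5. Its part in these values was not tested.

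Of the 8 tested demethylases of H3K9 and H3K36, 5 rose and 0 fell. Kdm2a, a CpG-binding H3K36 demethylase, had 25.3, 22.3 and 18.9 CPM on day 1 and 67.5, 55.4 and 58.9 CPM on day 5 (log2 fold change 1.51 ± 0.27 (SE), adjusted p = 0.00011). Kdm3a, an H3K9 demethylase, had 79.2, 81.1 and 123 CPM and 232, 210.4 and 206 CPM (log2 fold change 1.26 ± 0.20 (SE), adjusted p = 4.2e-05). Both kept their call in each of 13 alternatives, and neither pair of groups overlaps. Kdm7a (1.11, adjusted p = 0.00076), Kdm4b (1.08, adjusted p = 0.037) and Kdm4c (0.69, adjusted p = 0.025) also passed, and Kdm4c lost its call in 7 of 13, among them those without day 1 replicate 1 (adjusted p = 0.09) or 2 (0.13) and without day 5 replicate 1 (0.063) or 2 (0.099). Kdm4b stood at 2.03 and Kdm7a at 0.54 with the GC trend removed. Kdm2b, a paralogue of Kdm2a that recruits a variant Polycomb complex to CpG islands, did not pass (-0.32, adjusted p = 0.3). With the GC trend removed it stood at 0.0100 (adjusted p = 0.98). Its day 5 libraries (11.8, 14.4 and 14.97 CPM) lay below every other blastoid library, but the share of all genes with that pattern was not counted.

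Among 18 tested enzymes outside the name rule, 3 were higher and 8 lower on day 5. Phf8, an X-linked JmjC demethylase, rose (1.49, adjusted p = 3.1e-05), while the SET and MYND domain genes Smyd5 (-1.90, adjusted p = 3.2e-06) and Smyd4 (-1.53, adjusted p = 6.5e-05) fell.

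**Figure D4:**
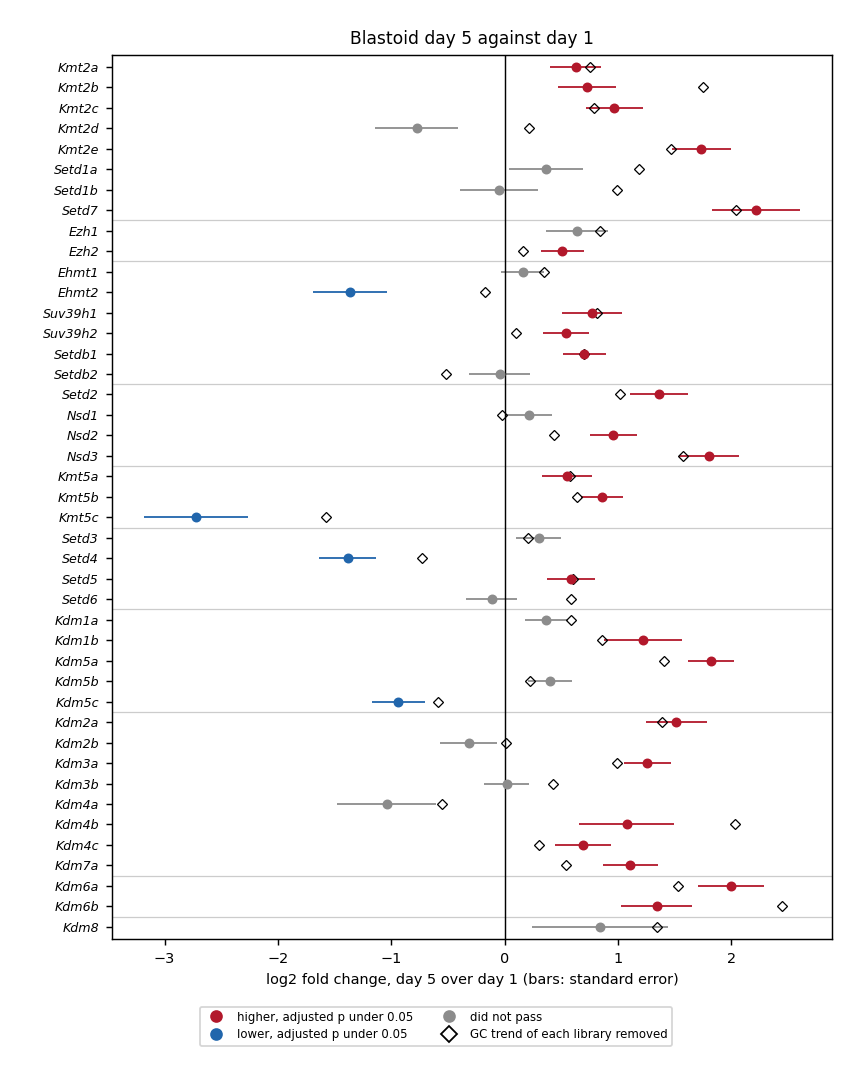
Log2 fold change of blastoid day 5 over day 1, grouped by substrate in the order of the family map, with standard errors (n = 3 per day), and the value with the GC trend of each library removed (open diamonds). Kdm5d, with no count on day 5, is left out. Most circles lie to the right of 0, with those of Setd7, Kdm6a, Kdm5a and Nsd3 farthest, and Kmt5c, Setd4, Ehmt2 and Kdm5c are called lower.

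Of the 22 members named by rule and called in this comparison, 12 kept their call in every alternative. In transcripts under 45% GC, 9 of 11 members were higher, where 38.6% of all tested genes of that class were, and between 45% and 50% GC 11 of 14 were higher, where 29.7% of all genes were. From 50% to 55% GC, 1 of 9 members was higher and 1 lower, where 18.4% and 32.6% of all genes were, and at 55% GC or more 3 of 10 were higher and 3 lower, where 9.42% and 46.1% of all genes were. By introns, 16 of 27 members with at least 20 were higher and 3 lower, where 35.0% and 15.6% of all genes of that class were.

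The rise was not spread evenly over the 5 days. From day 1 to day 2, 0 members were higher and 2 lower, against 1.69% and 5.27% of all genes. The 2 were Kmt5c (-1.89, adjusted p = 0.0066) and Kmt2d (-1.39, adjusted p = 0.026), named after their values were seen, and with the GC trend removed neither passed. At an unadjusted p of 0.05, 7 members differed in either direction, and DESeq2 called 1 higher and 2 lower. Leaving out day 1 replicate 1 or day 2 replicate 3 left 0 lower calls, and leaving out day 1 replicate 2 or day 2 replicate 2 left 1. Total-count scaling moved the median of all genes by -0.19 in this step, and 10.2% of called genes were then higher.

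From day 2 to day 3, 6 members were higher and 3 lower, with 12% and 13.5% of all genes. Kdm7a (1.16, adjusted p = 0.0022), Kdm1b (1.34, adjusted p = 0.0081) and Kdm2a (0.98, adjusted p = 0.011) had the largest rises by the naming rule, and Ehmt2 fell (-1.06, adjusted p = 0.021). Without day 3 replicate 3, the library that stands apart, 1 member was higher and 1 lower. Without day 2 replicate 2 or 3 the counts were 2 and 1, without day 3 replicate 2 the lower count was 1, and with the GC trend removed it was 0. Kdm7a (0.60), Kdm1b (1.09) and Kdm2a (1.00) kept their calls there and Ehmt2 did not. Without day 3 replicate 3 the calls of Kdm1b (adjusted p = 0.065), Kdm2a (0.091) and Ehmt2 (0.074) ended. Kdm1b was also lost without day 2 replicate 3 (0.053), Kdm2a without day 2 replicate 2 (0.058) and Ehmt2 without day 2 replicate 1 (0.07).

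From day 3 to day 4, 6 members were higher and 4 lower, where 15.6% and 12.3% of all genes were. Kdm6b rose from 5.12, 5.41 and 3.33 CPM to 14.05, 10.9 and 9.55 CPM (1.29, adjusted p = 0.0039) and Ehmt2 from 10.9, 11.3 and 5.99 CPM to 16.4, 24.2 and 23.4 CPM (1.16, adjusted p = 0.012), while Kdm6a (-0.81, adjusted p = 0.038) and Kdm7a (-0.79, adjusted p = 0.017) fell. All 4 calls ended with the GC trend removed, where 2 members were higher. Single libraries moved the counts as well: without day 4 replicate 2, 3 were higher and 2 lower, without day 3 replicate 1, 7 were lower, and without day 3 replicate 2 or day 4 replicate 3, 2 were lower. Kdm6a was lost without day 3 replicate 2 (adjusted p = 0.052) or 3 (0.15) or day 4 replicate 1 (0.1) or 3 (0.15), and Kdm7a without day 3 replicate 3 (0.078) or day 4 replicate 2 (0.074). Total-count scaling moved the median of all genes by 0.14, and 68.9% of called genes were then higher.

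The last step held the largest number of rises, with 11 higher and 2 lower from day 4 to day 5 against 14.1% and 14.5% of all genes. Nsd3 went from 21.1, 24.4 and 22.4 CPM on day 4 to 72.4, 63.2 and 57.03 CPM on day 5 (1.54, adjusted p = 0.00029), Setd2 from 139.7, 258 and 225 CPM to 625, 495 and 425 CPM (1.34, adjusted p = 0.00069) and Kdm6a from 42.4, 58.5 and 37.9 CPM to 157, 120.2 and 81.8 CPM (1.41, adjusted p = 0.0012). Kdm5a (1.13, adjusted p = 0.00031), Kmt2c (1.04, adjusted p = 0.0041), Kdm3a (1.03, adjusted p = 0.00086) and Kmt2e (1.03, adjusted p = 0.0052) rose with them. Setd4 fell from 17.9, 17.5 and 22.8 CPM to 4.77, 5.75 and 7.96 CPM (-1.61, adjusted p = 0.00013). Removal of the GC trend left all of these called, with values such as 1.44 for Nsd3, 1.15 for Setd2, 1.13 for Kdm6a and -1.16 for Setd4. Of the 9 members named by rule and called in this step, 8 kept their call in every alternative. Kdm2a lost its call in 4 of 12, with adjusted p up to 0.08, among them those without day 4 replicate 2 (0.076) and day 5 replicate 1 (0.056). Total-count scaling, which moved the median of all genes by -0.21 and left 31.2% of called genes higher, gave 7 members higher and 4 lower, removal of the GC trend gave 17 higher and 2 lower, and without day 4 replicate 1 the lower count was 4. Over the 12 libraries of days 1 to 4, Setd2 ran from 139.7 to 276 CPM and Nsd3 from 14.9 to 36.2 CPM, all below their day 5 libraries.

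**Figure D5:**
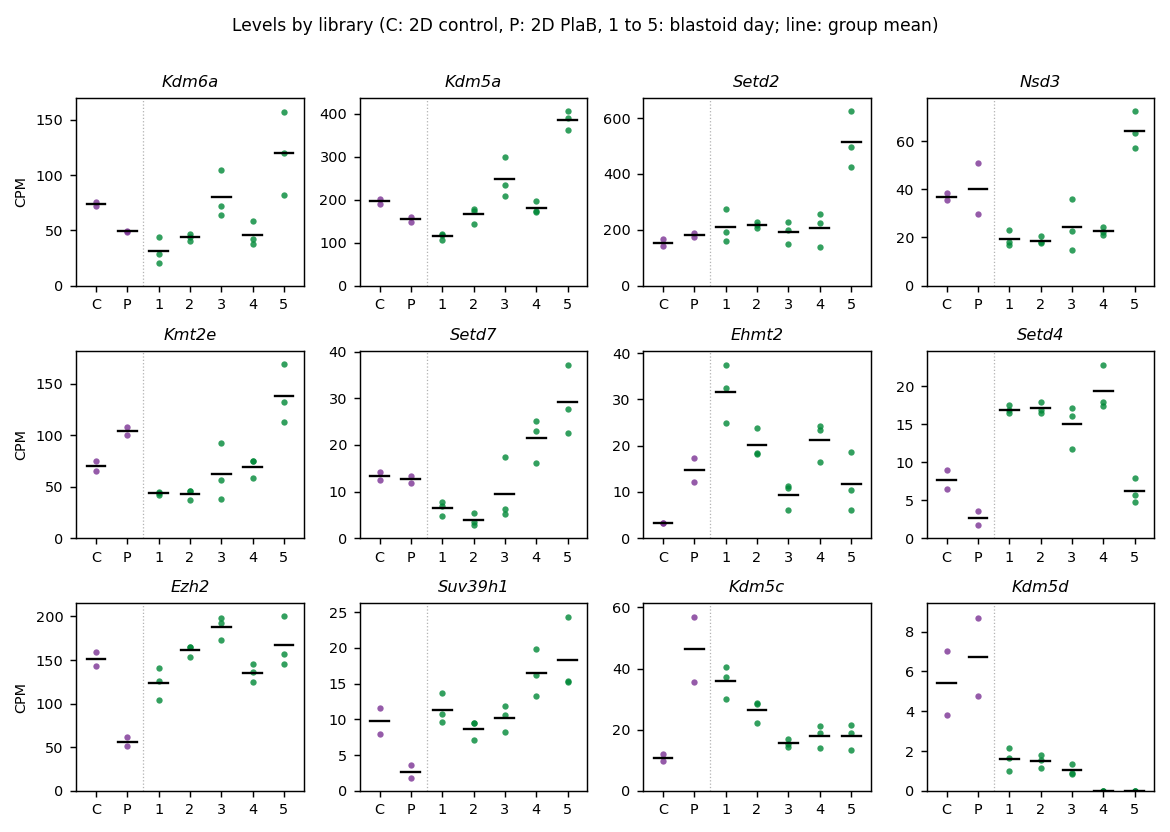
CPM of 12 members in each library of the 7 groups (C, 2D control; P, 2D PlaB; 1 to 5, blastoid day), each panel on its own linear scale from 0, with lines at the group means. Setd2, Nsd3 and Kdm5a stand highest on day 5, Setd4 drops there, and Ezh2 and Suv39h1 are lowest with PlaB.

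Over the 5 days as a whole, 33 of 44 members changed on at least 1 day by the joint test, where 68% of all genes did, so the share of members is close to the background. The 11 that did not pass include Kdm1a (adjusted p = 0.32), Ehmt1 (adjusted p = 0.87), Nsd1 (adjusted p = 0.065) and Setd5 (adjusted p = 0.098).

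Blastoids on day 1 were also set against PlaB-treated 2D cells, for which the labels name the same agent, dose and duration. They do not say when in the blastoid culture the treatment fell. The libraries come from separate tables of counts, and the culture format, the timing of PlaB and the share of feeder RNA cannot be told apart. Of 44 members, 14 were higher and 8 lower on day 1, against 21.9% and 17% of all genes. Setd4 was at 1.73 and 3.56 CPM with PlaB and 16.8, 16.5 and 17.5 CPM on day 1 (2.65, adjusted p = 9.8e-06). Suv39h1 (2.06, adjusted p = 0.00057), Kdm1b (1.69, adjusted p = 0.0078), Ezh2 (1.14, adjusted p = 0.00026) and Ehmt1 (1.03, adjusted p = 0.00081), all lower after PlaB in 2D, were higher on day 1 than in the PlaB cells. Suv39h2 (-1.05, adjusted p = 0.0011), Kmt2e (-1.25, adjusted p = 0.00061) and Kdm6b (-1.48, adjusted p = 0.0053), all higher after PlaB, were lower on day 1. Both comparisons use the PlaB libraries, so these opposite signs are not independent, and the shared libraries favour them for any gene called after PlaB. The number of opposite signs among all members called after PlaB, and the share among all genes, are not given here. Not every member named by rule turned. Kdm7a, lower after PlaB, was lower again on day 1 in each of 11 alternatives (-1.28 to -0.88). Ehmt2, higher after PlaB, was higher again and kept its call in 8 of 11 (0.12 to 1.41). Without PlaB replicate 2, 7 members were higher and 5 lower, and the calls of Kdm1b (adjusted p = 0.1) and Kdm6b (0.11) ended. With the GC trend removed, 11 members were higher and 10 lower, with Kdm6b at -2.34. None of the 8 genes named here with signs opposite to those after PlaB lost its call. Total-count scaling moved the median of all genes by 0.29, and 71.1% of called genes were then higher. Of 17 feeder markers tested, 16 were lower on day 1, and their part in the result was not tested.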

How the data were processed

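Raw counts of reads per gene, deposited as a 2D and a blastoid table, were used. STAR 2.7.10b, HTSeq 0.13.5 and mm10 are named in the submitters' processing notes. The annotation and the strand setting, being not given in the sources used here, leave overlapping genes uncertain. Titles assigned libraries to groups.

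Genes passing filterByExpr (minimum count 10, minimum total 15) were tested with edgeR 4.0.16 (TMM scaling, robust quasi-likelihood F-test), fitting the 2D libraries, the blastoid libraries or, for day 1 against PlaB, all of them. Benjamini-Hochberg adjustment covered every gene tested, at a threshold of 0.05. Printed CPM are TMM-scaled over all 19 libraries, so their ratios can differ slightly from fitted fold changes. For GC removal, a loess trend (span 0.3) of log2 CPM on GC content was taken out of each library. Other alternatives were total-count and RLE scaling, no filter, a replicate block, only the groups compared, DESeq2 1.42.0 and leaving out each library. Gene models came from GENCODE M21 (GRCm38). The fit was tested on simulated data.

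Named by rule were up to 8 called members per direction with the largest log2 fold change, without overlap and averaging 10 CPM or more in the higher group, and a set list of 26 members in the PlaB and the day 5 against day 1 comparisons. Partner genes named had the 3 smallest adjusted p of their list. Other members named were chosen after their values were seen. Members, lists and tests were chosen with earlier results of these data known.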

Additional observations from a re-analysis of the deposited data

How the results depend on the processing

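Of 1108 values of named members under alternatives, 926 kept direction and side of the threshold, 152 no longer passed, 13 newly passed and 17 reversed. The counts of members called moved as follows. For PlaB against control DESeq2 gave 8 lower. For day 5 against day 1, total-count scaling gave 14 and no filter 13 higher. For day 2 against day 1, GC removal and DESeq2 gave 1 higher each, and GC removal 0 lower. For day 3 against day 2 GC removal gave 0 lower. For day 4 against day 3, GC removal gave 2 higher, and total-count scaling 2, no filter 2, RLE scaling 7 and DESeq2 8 lower. For day 5 against day 4, total-count scaling and no filter gave 7 higher and 4 lower each, and GC removal 17 higher. The cause of these moves was not tested. Leaving out 1 library at a time gave 5 to 9 members higher and 7 to 11 lower after PlaB, 16 to 20 and 5 to 7 for day 5 against day 1, 0 to 0 and 0 to 3 for day 2 against day 1, 1 to 7 and 1 to 3 for day 3 against day 2, 3 to 6 and 2 to 7 for day 4 against day 3, 8 to 11 and 2 to 4 for day 5 against day 4, 29 to 38 for any change, and 7 to 15 and 5 to 9 for day 1 against PlaB. A lone 2D library was then assumed to vary like the other group.

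Log2 fold changes that reversed after PlaB were those of Setd6 (-0.081), Kmt2b (-0.060), Setd1b (-1.11), Nsd1 (0.086), Kdm1a (-0.19) and Kdm5a (0.065) with the GC trend removed, Setd1b (-0.02) and Kdm1a (-0.0022) without control replicate 2, and Setd1b (-0.45) without PlaB replicate 1. For day 5 against day 1 they were Kmt2d (0.22), Setd1b (0.99), Nsd1 (-0.024) and Kdm2b (0.0100) with the GC trend removed, Ehmt1 (-0.18) and Nsd1 (-0.12) with total-count scaling, Ehmt1 (-0.051) without a filter, and Setd1b (0.0016) without day 5 replicate 2. Leaving out 1 library at a time gave -0.45 to 0.62 for Setd1b and -0.0022 to 0.21 for Kdm1a after PlaB, and -0.16 to 0.0016 for Setd1b on day 5. Of these, Setd6, Kmt2b and Kdm5a had been called.

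Same-numbered blastoid libraries were not more alike than others. Deviations of same-numbered libraries correlated at over 0.1 in 4 of 30 pairs of blastoid days (median -0.036), and those of other libraries in 10 of 60 (median 0.021). In 2D, with 2 libraries per group, the correlations were -0.018 and 0.018. They are 1 value with its sign turned, too little to settle pairing there. With a replicate block, 9 members were higher and 12 lower after PlaB, 21 and 5 for day 5 against day 1, 0 and 2, 5 and 3, 5 and 3, and 10 and 2 for the steps between days, 31 for any change, and 14 and 8 for day 1 against PlaB. The block ended the calls of 6 named values. Within the depth of these libraries, members under about 10 CPM, such as Kmt2d, Suv39h1 and Kdm6b in 2D, rest on few counts.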
